A study of Mus musculus with 6 samples.

Results

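The mitochondrial solute carriers are the proteins of the SLC25 family, and every gene row named *Slc25a* followed by a number was taken as a member. This gave 47 of the 23698 gene rows, and no row joined a member with another gene. The series asked how untranslated regions relate to translation in mouse epidermis and in cells of squamous cell carcinoma kept in culture (SCCc). Of its 6 samples, the 3 long-read libraries were not analysed here, and the values below come from 1 ribosome profiling library and 2 RNA-seq replicates of SCCc. The labels give the genotype of all 3 libraries as HrasG12V with Tgfbr2 fl/fl KO, and the cells as primary keratinocytes of newborn back skin at passages 10 to 15. They were a line made earlier, so the libraries sample 1 line in culture and no tumour. No library of a control genotype was analysed here, so a value describes a gene relative to the other genes of SCCc and not a change from normal keratinocytes.

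Footprints, the pieces of mRNA that a ribosome shields from nuclease, were counted by ribosome profiling, and mRNA by RNA-seq. Counts on exons summed to 3549555 in ribosome profiling and to 10707930 and 14003713 in RNA-seq replicates 1 and 2, and 3198469 footprints lay on coding sequences (CDS). RPKM is the count scaled to the length of the counted region and to the exon counts of the library. Translational efficiency (TE) divides the RPKM of footprints on the CDS by the RPKM of RNA-seq on exons, averaged over the replicates. It is given on the log2 scale relative to the median of the 9863 genes that passed the filters, so 0 is the typical gene and 1 is 2-fold above it. The log2 ratio of replicate 2 to replicate 1 had an SD of 0.20 over all genes and 0.16 over the members. The labels do not say whether the replicates were separate cultures. Ribosome profiling had no replicate here, so the SD of a TE is that over RNA-seq replicates. The 95% interval beside a TE is the exact Poisson interval of the footprints, which covers counting error only. In bulk RNA, fewer cells of a type and less RNA per cell cannot be told apart.

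All 6 keratinocyte markers examined had an RNA-seq RPKM above 1 in both replicates, and *Krt5* was the most abundant at 7965 and 9483 RPKM. Of 5 fibroblast markers 3 were above 1 RPKM in both, with a summed level of 8.50 and 14.1 RPKM led by *Col3a1* at 3.89 and 5.49 RPKM, and *Pdgfrb* had 3 counts in each replicate. Of the immune markers, *Cd68* reached 35.1 and 37.3 RPKM while *Cd3e* was at 0 and *Ptprc* at 0.0824 and 0.176 RPKM. The muscle and endothelial markers stayed below 1 RPKM, and of the melanocyte markers *Pmel* had 5.03 and 5.19 RPKM with *Dct* below 1. The labelled keratinocyte identity was thus met by its markers. The muscle actin *Acta1* had 2432 CDS footprints beside 5 and 4.97 RNA-seq counts, and the source of these footprints was not tested.

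SLC25 proteins are built from repeats of a pair of membrane helices, and most sit in the inner mitochondrial membrane, where they usually exchange a substrate of the matrix for one of the cytosol. They carry ADP and ATP, phosphate, carboxylates, amino acids, nucleotides, cofactors, acylcarnitines, glutathione and iron, and so connect oxidative phosphorylation and matrix synthesis with the rest of the cell. They are made on cytosolic ribosomes from nuclear genes and inserted into the inner membrane through the TIM22 complex.

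Of the 47 members, 35 passed the filters, an RPKM above 1 in both RNA-seq replicates, a base mean (the mean count of the 3 libraries after scaling) above 25, and footprints on a counted CDS. Among these 35, 6 had a log2 TE above 1, against 20.8% of all passing genes, and 9 had a log2 TE below −1, against 21.1%. The shares of the members were 17.1% and 25.7%, near those of all genes, and their median log2 TE was −0.02. They ranged from −3.30 for *Slc25a29* to 2.43 for *Slc25a10*. The interval stayed clear of 0 in 25 of the 35, lay wholly above 1 in 3 and wholly below −1 in 5. Fewer than 25 CDS footprints were counted in 11 of them. With at least 100 counts asked for in every library, 13 members were left, of which 1 was above 1 and 2 below −1, against 18.8% and 15.7% of the 4829 genes left. The median of all genes with that many counts lay 0.39 higher on the log2 scale, and each member moved down by that shift. This took *Slc25a24* to 0.97, *Slc25a48* to 0.76 and *Slc25a5* to 0.68, under 1, and *Slc25a1*, *Slc25a4*, *Slc25a11* and *Slc25a13* under 0.

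**Figure D1:**
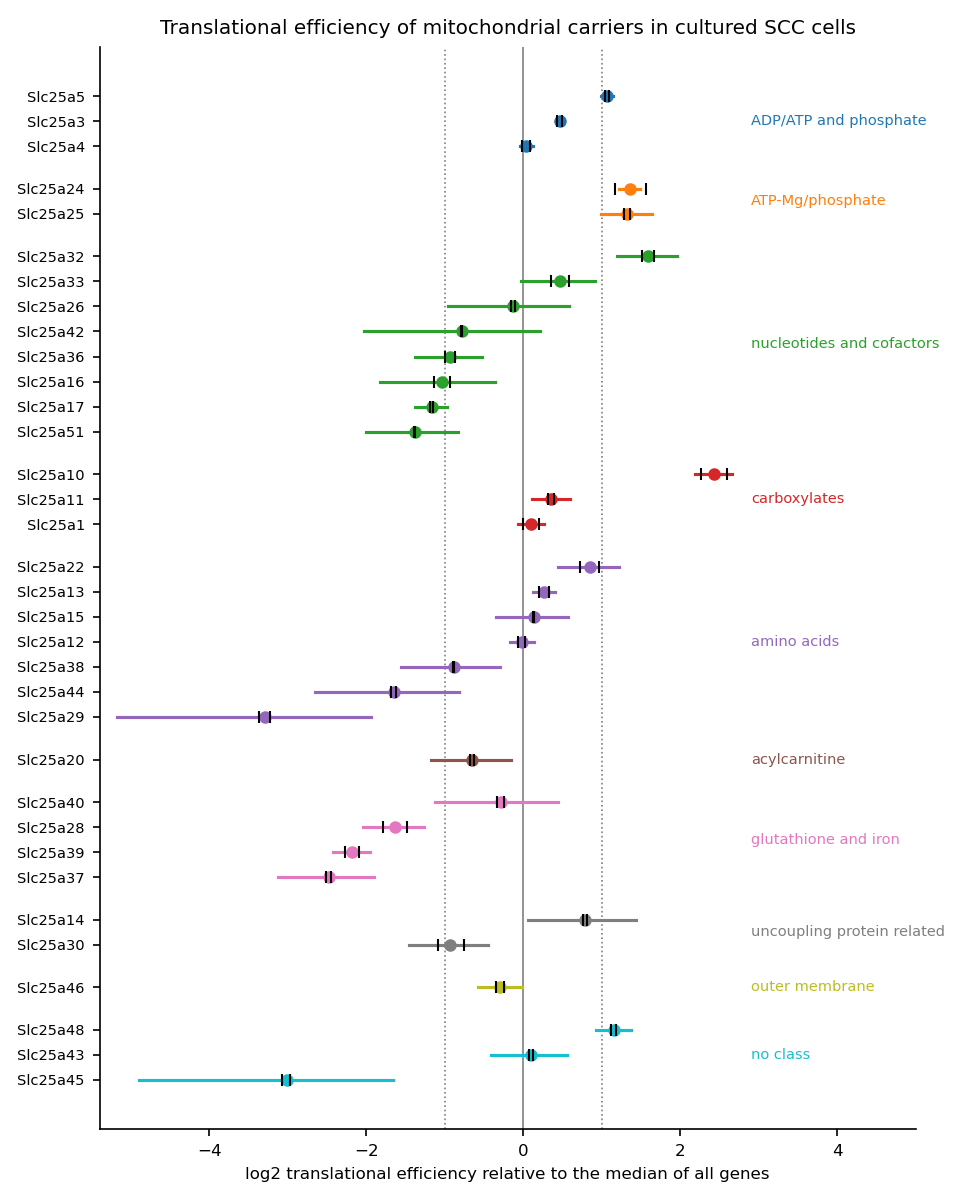
Log2 TE of 34 of the 35 passing members by substrate class, with dots giving the TE from the mean of the RNA-seq replicates, bars the 95% counting interval of the footprints and black ticks the TE from each replicate. Dotted lines mark 1 and −1, and the ATP-Mg/phosphate carriers lie above 1 and 3 of the 4 glutathione and iron carriers below −1.

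The ADP/ATP carriers exchange cytosolic ADP for ATP made in the matrix, and the phosphate carrier *Slc25a3* brings in the phosphate that ATP synthase needs. *Slc25a5* (chrX:36795651-36798807 in GRCm38, plus strand), the ADP/ATP carrier of dividing cells, had 1257 CDS footprints beside 1987 and 2469 RNA-seq counts. Per length this was 1789 footprint RPKM and 689.8 and 655 RNA-seq RPKM. It was the most abundant member in both readouts. *Slc25a4* (chr8:46206797-46211284, minus strand), the ADP/ATP carrier of heart and muscle, had 1236 CDS footprints beside 3429 and 4785 RNA-seq counts. Per length this was 389 footprint RPKM and 289.5 and 309 RNA-seq RPKM, which made it the third most abundant in both. *Slc25a3* (chr10:91116574-91124059, minus strand) had 3033 CDS footprints beside 7248 and 9784 RNA-seq counts. Per length this was 798 footprint RPKM and 448 and 462 RNA-seq RPKM, between the ADP/ATP carriers. *Slc25a31*, the testis form, had no count in any library. An absence of counts allows up to 3 counts in a library, or 8.45e-05% of the exon counts of ribosome profiling.

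Log2 TE was 1.07 ± 0.04 (SD, n = 2 RNA-seq replicates; counting interval 0.99 to 1.15) for *Slc25a5*, 0.47 ± 0.04 (SD, n = 2 RNA-seq replicates; counting interval 0.42 to 0.52) for *Slc25a3* and 0.04 ± 0.08 (SD, n = 2 RNA-seq replicates; counting interval −0.04 to 0.12) for *Slc25a4*. The intervals of the 3 genes did not overlap, and the order was the same with either RNA-seq replicate. With RNA-seq counted over the CDS the values were 1.26, 0.34 and 0.27, so *Slc25a5* stayed apart while the counting intervals of *Slc25a3* and *Slc25a4*, of the same widths, overlapped. The RPKM ratio of *Slc25a5* to *Slc25a4* was 2.38 and 2.12 in RNA-seq and 4.59 in footprints. The value of *Slc25a5* rests on 198 counted nt of an annotated CDS of 894 nt, 22.1%. Of the 865 windows of 30 nt in its CDS, 86.2% also occurred in annotated transcripts of 13 other genes, so its level and TE are uncertain. *Slc25a4* was counted over its whole CDS of 894 nt and shared no window. *Slc25a3* was counted over 87.1% of its annotated CDS and shared 11.1% of its windows. Together the 3 genes held 63.9% of the CDS footprints of the members, and 40.9% and 41.3% of their RNA-seq counts. All members held 0.270% of the CDS footprints of the library (Wilson 95% interval 0.265 to 0.276%) and 0.289% and 0.295% of the RNA-seq counts.

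**Figure D2:**
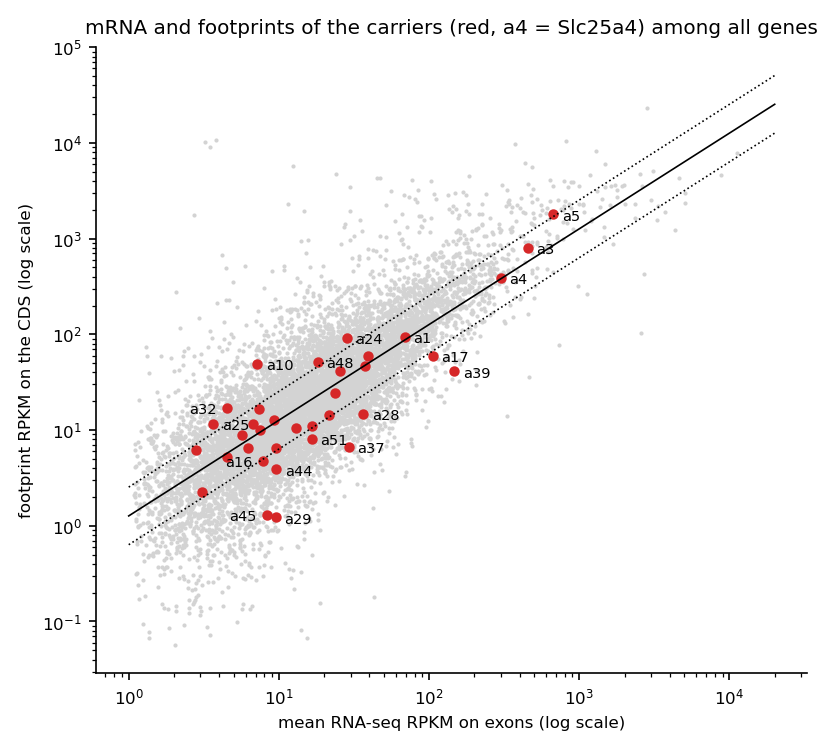
Mean RNA-seq RPKM on exons against footprint RPKM on the CDS for all 9863 passing genes (grey) and the passing members (red), both on log scales, where the solid line marks the median TE of all genes and the dotted lines 2-fold above and below it. *Slc25a5*, *Slc25a3* and *Slc25a4* lie at the upper right, *Slc25a10* lies above the dotted lines and *Slc25a39* and *Slc25a37* below them.

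The start codon surroundings of the members with the highest and lowest TE, taken where each library had 100 counts or more, are shown because ribosomes pick a start codon partly by these bases. They come from GENCODE M21 transcripts, 1 for each gene, and capitals mark the base 3 positions before the start codon, the start codon and the base after it.
Slc25a10: gctctgGccATGGcc
Slc25a24: cccgggAccATGCtg
Slc25a48: gtgtcgGtcATGGgc
Slc25a5: gctttcAacATGAca
Slc25a3: cttaggAggATGTtc
Slc25a4: gctttcAgcATGGgg
Slc25a12: gagcacAgcATGGcg
Slc25a17: tgtggcAccATGGcc
Slc25a39: aattccAagATGGat
The first 5 are the highest and the last 4 belong to the lowest 5, of which the sequence of *Slc25a46* is not shown. A purine stood 3 positions before the start codon in all 9. A G followed the start codon in the 4 shown of the lowest 5 and in 2 of the highest 5. *Slc25a46*, the member of the lowest 5 not shown, had no G there. These groups are only the ends of 13 members. *Slc25a4* (log2 TE 0.04) and *Slc25a12* (−0.02) of the lowest 5 lay near the median of all genes, and *Slc25a3* of the highest 5 was at 0.47. The contrast is thus not one of low against high TE. Among all called members the purine was present in 4 of the 6 above 1 and 6 of the 9 below −1, and the G in 3 and 7. In all genes above 1 and below −1 the purine stood in 91.7% and 82.9% and the G in 55.6% and 52.7%. Over the passing members 28 of 35 had the purine (80%, all genes 87.3%) and 25 the G (71.4%, all genes 54.3%). Whether these bases bear on TE was not tested.

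The ATP-Mg/phosphate carriers exchange ATP-Mg for phosphate and so change the adenine nucleotide content of the matrix. *Slc25a24* (chr3:109123149-109168457, plus strand) had 466 CDS footprints beside 1156 and 1136 RNA-seq counts, or 92.1 footprint RPKM and 32.3 and 24.3 RNA-seq RPKM. *Slc25a25* had 79.3 CDS footprints beside 171 and 211 RNA-seq counts, or 11.6 footprint RPKM and 3.78 and 3.55 RNA-seq RPKM. Log2 TE was 1.36 (counting interval 1.23 to 1.49) for *Slc25a24* and 1.32 (counting interval 0.99 to 1.64) for *Slc25a25*, so both were above 1, against 20.8% of all genes, and their intervals overlapped. The RNA-seq replicates of *Slc25a24* differed by −0.41 on the log2 scale (replicate 2 over replicate 1), and its TE was 1.17 with replicate 1 and 1.57 with replicate 2. *Slc25a25* shared 15.1% of its windows with another gene. *Slc25a23* had no footprint and 0 and 2 RNA-seq counts, and *Slc25a41* had no count at all.

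Carboxylate carriers move citrate, dicarboxylates and oxoglutarate between matrix and cytosol. *Slc25a10* (chr11:120491840-120499187, plus strand), the dicarboxylate carrier, had 149.9 CDS footprints beside 274 and 446 RNA-seq counts, or 49.04 footprint RPKM and 6.40 and 7.96 RNA-seq RPKM. Its log2 TE of 2.43 ± 0.23 (SD, n = 2 RNA-seq replicates; counting interval 2.19 to 2.66) was the highest of the members and lay at percentile 95.9 of all passing genes. RNA-seq counts were not even along its 4000 nt of exons, with a mean of 16.4 RPKM over the CDS of 861 nt and 4.65 RPKM over 2989 nt of 3′UTR. With RNA-seq counted over the CDS its log2 TE was 1.54, still above 1 and now below that of *Slc25a32* and *Slc25a24*. An annotated gene on the other strand, *Gm11788*, overlaps it and has no row of its own, and whether counting used strand is not given in the sources used here. In all, 17 members overlap a gene on the other strand. Among these, *Slc25a26* overlaps *Lrig1* (2101 and 2735 RNA-seq counts), *Slc25a11* overlaps *Rnf167* (335 and 525) and *Slc25a21* overlaps *Pax9* (155 and 164). The RNA-seq counts of *Slc25a21* all lay on the 3′UTR, and what overlap adds to any member was not tested. The citrate carrier *Slc25a1* had 312 CDS footprints beside 1159.9 and 1733 RNA-seq counts, or 94.1 footprint RPKM and 64.6 and 73.8 RNA-seq RPKM, the fourth highest footprint level of the members. Its log2 TE was 0.10 (counting interval −0.06 to 0.26). That of the oxoglutarate carrier *Slc25a11* was 0.36 (counting interval 0.11 to 0.60), and the oxodicarboxylate carrier *Slc25a21* had no CDS footprint beside 12.04 and 12.8 RNA-seq counts.

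**Figure D3:**
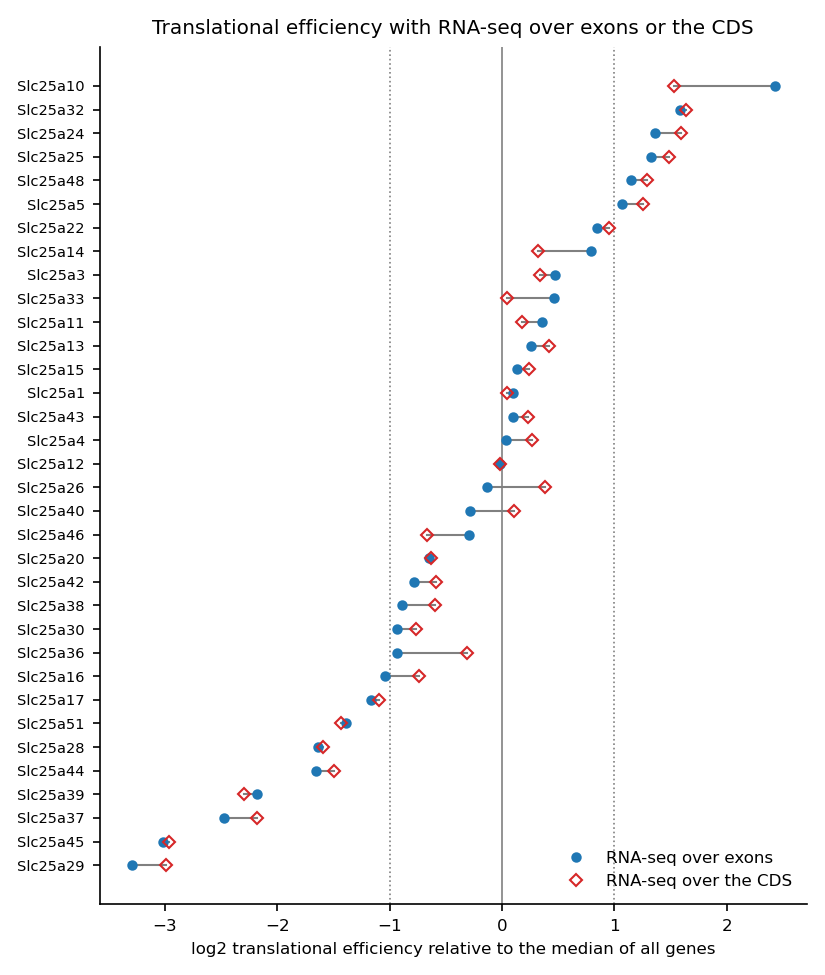
Log2 TE of 34 of the 35 passing members with RNA-seq counted over exons (blue dots) or over the CDS (red diamonds), each relative to the median of all genes counted the same way, with dotted lines at 1 and −1. *Slc25a10* moves from 2.43 to 1.54, and *Slc25a16* is the only called member that leaves its side of the limit.

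Of the 9 amino acid carriers 7 passed, with a median log2 TE of −0.02, none above 1 and 2 below −1, against 20.8% and 21.1% of all genes. The aspartate/glutamate carriers of the malate-aspartate shuttle had nearly equal levels. *Slc25a12* had 337 CDS footprints beside 1138 and 1569 RNA-seq counts, or 46.8 footprint RPKM and 36.3 and 38.3 RNA-seq RPKM. *Slc25a13* had 431 CDS footprints beside 1385 and 1633 RNA-seq counts, or 59.9 footprint RPKM and 41.4 and 37.4 RNA-seq RPKM. Their RNA-seq RPKM ratio (*Slc25a13* over *Slc25a12*) was 1.14 and 0.975 and lay on both sides of 1, and the footprint ratio was 1.28. Log2 TE was 0.26 (counting interval 0.12 to 0.40) for *Slc25a13* and −0.02 (counting interval −0.18 to 0.14) for *Slc25a12*, and these intervals overlapped slightly. With RNA-seq over the CDS the values were 0.42 and −0.02, and intervals of the same widths did not overlap. The glutamate carrier *Slc25a22* had 0.85 (counting interval 0.45 to 1.22) and the ornithine carrier *Slc25a15* 0.13 (counting interval −0.34 to 0.57). The glycine carrier *Slc25a38*, needed for heme synthesis, had −0.89 (counting interval −1.55 to −0.30). *Slc25a44*, a carrier of branched-chain amino acids, had 11 CDS footprints and a log2 TE of −1.65 (counting interval −2.66 to −0.81). *Slc25a29*, a carrier of basic amino acids, had 4 CDS footprints beside 191 and 274 RNA-seq counts and the lowest log2 TE of the members, −3.30 (counting interval −5.17 to −1.94). The other carriers *Slc25a18* and *Slc25a2* had no footprint and at most 13 RNA-seq counts in a replicate.

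Of the nucleotide and cofactor carriers all 9 passed, with a median log2 TE of −0.79, 1 above 1 and 3 below −1, against 20.8% and 21.1% of all genes. *Slc25a32*, which serves folate and FAD transport, had 57.9 CDS footprints beside 151 and 175 RNA-seq counts and a log2 TE of 1.59 (counting interval 1.19 to 1.96). *Slc25a17* (chr15:81318911-81360812, minus strand), a carrier of CoA, FAD and NAD of peroxisomes, had 194 CDS footprints beside 1873 and 2477 RNA-seq counts, or 59.5 footprint RPKM and 105 and 106 RNA-seq RPKM. It had the fifth highest RNA-seq level of the members and a log2 TE of −1.17 (counting interval −1.38 to −0.97). The NAD carrier *Slc25a51* had 25.6 CDS footprints beside 791 and 1027 RNA-seq counts and a log2 TE of −1.38 (counting interval −2.00 to −0.83). *Slc25a16* had a log2 TE of −1.04 (counting interval −1.82 to −0.36), and it passed −1 by less than its SD of 0.14. It was −0.94 without RNA-seq replicate 1 and −0.74 with RNA-seq over the CDS. The pyrimidine nucleotide carriers *Slc25a33* and *Slc25a36* had 0.46 (counting interval −0.03 to 0.91) and −0.93 (counting interval −1.38 to −0.52). The RPKM ratio of *Slc25a36* to *Slc25a33* was 3.64 and 2.86 in RNA-seq and 1.22 in footprints. *Slc25a36* shared 78.9% and *Slc25a33* 27.1% of their windows with another gene, and with RNA-seq over the CDS their log2 TE was −0.32 and 0.05, closer together, so this difference is uncertain. *Slc25a26*, the S-adenosylmethionine carrier, had 15.3 CDS footprints beside 91.9 and 123 RNA-seq counts. Its log2 TE was −0.13 (counting interval −0.96 to 0.59), or 0.38 with RNA-seq over the CDS. The CoA carrier *Slc25a42* had 7.66 CDS footprints beside 104 and 137 RNA-seq counts and −0.79 (counting interval −2.03 to 0.21).

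Of the 4 glutathione and iron carriers 3 were below −1, against 21.1% of all genes and with no test made on so few, and they had a median log2 TE of −1.91. *Slc25a39* (chr11:102402985-102407946, minus strand), a glutathione carrier, had 157 CDS footprints beside 2477 and 3633 RNA-seq counts, or 41.03 footprint RPKM and 139 and 156 RNA-seq RPKM. Its mRNA was the fourth most abundant of the members, and its log2 TE was −2.19 ± 0.13 (SD, n = 2 RNA-seq replicates; counting interval −2.42 to −1.96). Its relative *Slc25a40* had 14.9 CDS footprints beside 128 and 177 RNA-seq counts, or 6.49 footprint RPKM and 6.08 and 6.41 RNA-seq RPKM, and a log2 TE of −0.29 (counting interval −1.13 to 0.44), or 0.10 with RNA-seq over the CDS. The RPKM ratio of *Slc25a39* to *Slc25a40* was 22.8 and 24.3 in RNA-seq and 6.32 in footprints. The mRNA of the pair was thus far more unequal than its footprints. *Slc25a40* was counted over 63.8% of its CDS and shared 40.02% of its windows with another gene, whereas *Slc25a39* shared none. The mitoferrins bring iron into the matrix. *Slc25a37*, mitoferrin-1, had 23.8 CDS footprints beside 1338 and 1646 RNA-seq counts, or 6.63 footprint RPKM and 30.02 and 28.2 RNA-seq RPKM. *Slc25a28*, mitoferrin-2, had 57.5 CDS footprints beside 540.1 and 861 RNA-seq counts, or 14.8 footprint RPKM and 32.9 and 40.1 RNA-seq RPKM. Log2 TE was −2.48 (counting interval −3.12 to −1.90) for *Slc25a37* and −1.64 (counting interval −2.04 to −1.27) for *Slc25a28*, so both were below −1, though their intervals overlapped. The difference of *Slc25a37* from *Slc25a28* was −0.84, with a counting error of 0.35. *Slc25a37* shared 20.7% of its windows with 6 other genes.

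Among the remaining members, *Slc25a46*, which sits in the outer membrane and takes part in mitochondrial dynamics, had 109 CDS footprints beside 1152 and 1394 RNA-seq counts, or 24.5 footprint RPKM and 24.6 and 22.8 RNA-seq RPKM. Its log2 TE was −0.29 (counting interval −0.58 to −0.02) and it shared 20.7% of its windows with another gene. The acylcarnitine carrier *Slc25a20*, which admits fatty acids for oxidation, had −0.65 (counting interval −1.18 to −0.16). The uncoupling protein relatives *Slc25a14* and *Slc25a30* had 19.2 CDS footprints beside 57.9 and 72 RNA-seq counts, and 33.97 CDS footprints beside 269 and 437 RNA-seq counts. Their log2 TE was 0.79 (counting interval 0.06 to 1.43) and −0.93 (counting interval −1.46 to −0.45), and that of *Slc25a30* was −1.09 without RNA-seq replicate 1, past −1. *Slc25a48*, which has been linked to choline import, had 167 CDS footprints beside 286 and 388 RNA-seq counts, or 51.2 footprint RPKM and 17.9 and 18.5 RNA-seq RPKM, and a log2 TE of 1.15 (counting interval 0.92 to 1.37). The log2 TE was 0.10 (counting interval −0.41 to 0.56) for *Slc25a43* and, from 4 footprints, −3.02 (counting interval −4.89 to −1.66) for *Slc25a45*.

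The 3 passing members with the lowest base mean were *Slc25a14* (44.03), *Slc25a42* (53.2) and *Slc25a26* (55.9). Just outside the filters, *Slc25a27*, a relative of the uncoupling proteins, had 2 CDS footprints beside 51.1 and 70.7 RNA-seq counts and a base mean of 24.9. *Slc25a35* had no footprint and 59.1 and 54.6 RNA-seq counts (base mean 21.9), and *Slc25a53* no footprint and 45.6 and 46.5 (base mean 17.6). With 3 footprints in place of 0 the log2 TE of *Slc25a35* was at most −1.81 and that of *Slc25a53* at most −0.81. *Slc25a47* had 1 footprint and 17.9 and 39.2 RNA-seq counts. In all, 12 members failed the filters. 10 members had no footprint on the CDS, 3 of them (*Slc25a31*, *Slc25a41* and *Slc25a54*) had no count in any library, and *Slc25a34* had 2 RNA-seq counts in replicate 2, none in replicate 1 and 1 footprint on the 3′UTR. At this depth lower levels were not detectable.

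Footprints on the 5′UTR were compared with those on the CDS in the 8 members with at least 10 footprints on each and at least 30 counted nt of 5′UTR. In 5 of them the 5′UTR was denser per nt, against 24.8% of the 3082 genes that met the same terms. Asking for 10 footprints on the 5′UTR favours genes that are dense there, and 8 members are few, so nothing is read from this count. *Slc25a39* had 39.2 footprints on 143 nt of 5′UTR and 157 on 1077 nt of CDS, and *Slc25a48* had 34.1 footprints on 135 nt of 5′UTR and 167 on 918 nt of CDS. *Slc25a40* had 13.5 footprints on 281 nt of 5′UTR and 14.9 on 645 nt of CDS, *Slc25a51* had 11.4 footprints on 223 nt of 5′UTR and 25.6 on 894 nt of CDS and *Slc25a30* had 11.9 footprints on 180 nt of 5′UTR and 33.97 on 873 nt of CDS. The log2 ratio of the densities, with a normal 95% counting interval, was 1.06 (0.00 to 2.12) for *Slc25a40*, 0.91 (0.41 to 1.42) for *Slc25a39*, 0.84 (−0.16 to 1.85) for *Slc25a51*, 0.76 (−0.19 to 1.72) for *Slc25a30*, and 0.47 (−0.06 to 1.01) for *Slc25a48*. The interval stayed above 0 in *Slc25a39* and reached 0 or below in the other members of the 5. With at least 30 footprints on each region asked for, 2 of 4 members were denser on the 5′UTR, *Slc25a39* and *Slc25a48*, against 22.5% of 1158 genes. The footprint ratio was negative in *Slc25a3* (−0.74), *Slc25a4* (−0.77) and *Slc25a1* (−1.77). RNA-seq counts on the 5′UTR were few, with 16.9 and 26.5 in the replicates for *Slc25a40*, 26.4 and 61.7 for *Slc25a39* and 34.3 and 32.3 for *Slc25a51*. *Slc25a30* had 10.8 and 45.2 and *Slc25a48* 1.75 and 10.6. The RNA-seq log2 ratio of 5′UTR to CDS density was 0.09 for *Slc25a40*, −2.98 for *Slc25a39*, −0.80 for *Slc25a51* and −0.54 for *Slc25a30*. For *Slc25a48* and *Slc25a1*, the latter with 0 and 2.12 counts, these are too few for a ratio. The ratio was −2.10 for *Slc25a3*, from 58.2 and 125 counts, and −0.01 for *Slc25a4*, from 241 and 433.

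**Figure D4:**
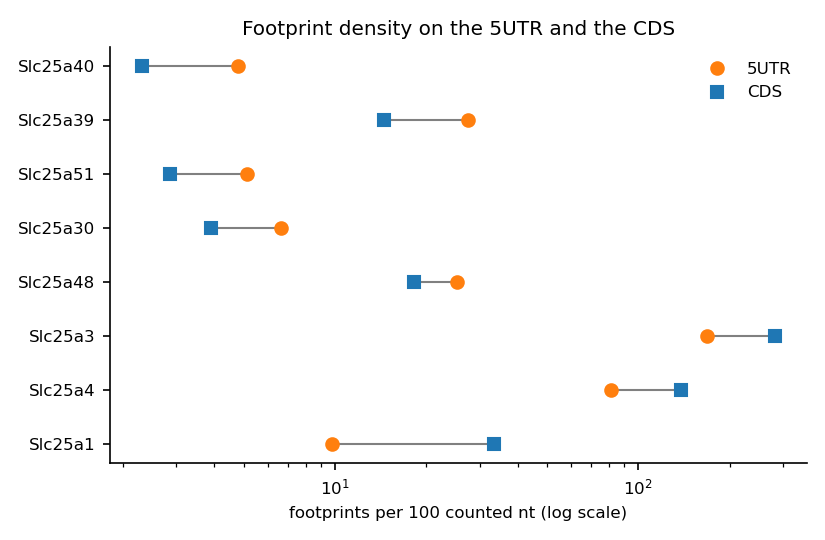
Footprints per 100 counted nt on the 5′UTR (orange dots) and the CDS (blue squares) of the 8 members with enough footprints on both, on a log scale. The 5 upper members have the denser 5′UTR and *Slc25a3*, *Slc25a4* and *Slc25a1* the denser CDS.

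The upstream ATGs of these 5 members are shown because each of the 5 annotated 5′UTRs holds at least 1. They were read from the same GENCODE transcripts, the distance runs from the upstream ATG to the annotated start codon, and the capitals mark the ATG.
Slc25a48 at 67 nt: ggggccATGccc
Slc25a39 at 69 nt: gccgctATGggc
Slc25a30 at 36 nt: gaggcaATGctt
Slc25a40 at 62 nt: acccaaATGttg
Slc25a40 at 53 nt: ttgggcATGtta
Slc25a51 at 148 nt: tgggaaATGcag
Slc25a51 at 106 nt: ctaacaATGgac
Slc25a51 at 51 nt: gctcagATGtca
The upstream frame ended within the 5′UTR in all of these except the last of *Slc25a51*, which ran in frame into the CDS. The annotated CDS of *Slc25a51* over all its transcripts is 945 nt, against 894 nt counted. Whether its counted 5′UTR includes that extra CDS, starting at this ATG, was not tested. Among all genes that met the footprint terms and had an annotated transcript, 85.6% of the 713 with a denser 5′UTR and 49.5% of the 2240 others had an upstream ATG. Of the 3 members with a denser CDS, *Slc25a3* and *Slc25a4* had at least 1 in the annotated transcript, and *Slc25a1* had none. In *Slc25a3* and *Slc25a4* the distance to the start codon exceeded the counted 52 and 87 nt of 5′UTR. Where the counted nt lie is not given, so whether these ATGs were within them is unknown. Across all passing members, 21 of 35 had an upstream ATG (60%, all genes 49.5%). Their median log2 TE was −0.29, and that of the 14 without was 0.18. In all genes the medians were −0.25 and 0.23. Of the 6 members above 1, 1 had an upstream ATG, and of the 9 below −1, 6. Of all genes above 1 the share with an upstream ATG was 37.8%, and of those below −1 it was 65.6%. The part of upstream ATGs in these values was not tested.

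For comparison, 118 of 326 other rows whose names begin with Slc and a number passed. This list, taken by name, includes a few genes of other functions such as *Slc9a3r1*. Its median log2 TE was −0.10, with 16 above 1 (13.6%) and 25 below −1 (21.2%). Of all genes, 20.8% lay above 1 and 21.1% below −1. The 77 mitochondrial ribosomal protein genes had a median of 0.85, 35 above 1 (45.5%) and 1 below −1 (1.30%). The 76 passing genes listed as subunits of oxidative phosphorylation had a median of 1.00, with 38 above 1 and 1 below −1. This list was also taken by name and not checked gene by gene, and the 1 below −1 was *Cox7a2l* (−1.53). Of the 35 carriers 17 lay above 0, against 68 and 67 in those lists. With RNA-seq over the CDS the medians were 0.67 and 0.57, and 0.04 for the carriers, so both lists lay closer to the carriers and still above them. The counted CDS of the carriers was longer, with a median of 933 nt against 540 and 405 nt, and its part in the difference was not tested. Of the TIM22 route that inserts carriers, 12 of 13 listed genes had a row and 11 passed. Of these, 9 were above 1 (81.8%) and none below −1. Their median was 1.61, or 1.37 with RNA-seq over the CDS. Their counted CDS was shorter still, with a median of 285 nt, and its part was not tested either. *Tomm22* and *Timm10b* were counted over 51.2% and 51.7% of their annotated CDS. *Timm22*, the pore of this route, had 1.56, and the outer membrane receptors *Tomm20* and *Tomm70a* had 3.46 and 0.49. RNA-seq over the CDS against exons was 13.8 against 5.68 RPKM for *Timm22* and 167 against 47.1 for *Tomm20*. For *Tomm70a* it was 107 against 67.7, so these TE values depend on the counted region. Of the relatives of the carriers under other names, *Mtch2* had 1.53, *Mtch1* −1.64 and *Ucp2* −1.77, while *Ucp1* and *Ucp3* did not pass. Here too the counted region matters. RNA-seq over the CDS against exons was 136 against 55.3 RPKM for *Mtch2*, 107 against 92.8 for *Mtch1* and 145 against 51.7 for *Ucp2*. Across the 35 members the Spearman correlation of TE with RNA-seq RPKM was −0.20, and 0.10 across all genes. These are descriptions over genes of the same libraries, and RNA-seq enters both axes.

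**Figure D5:**
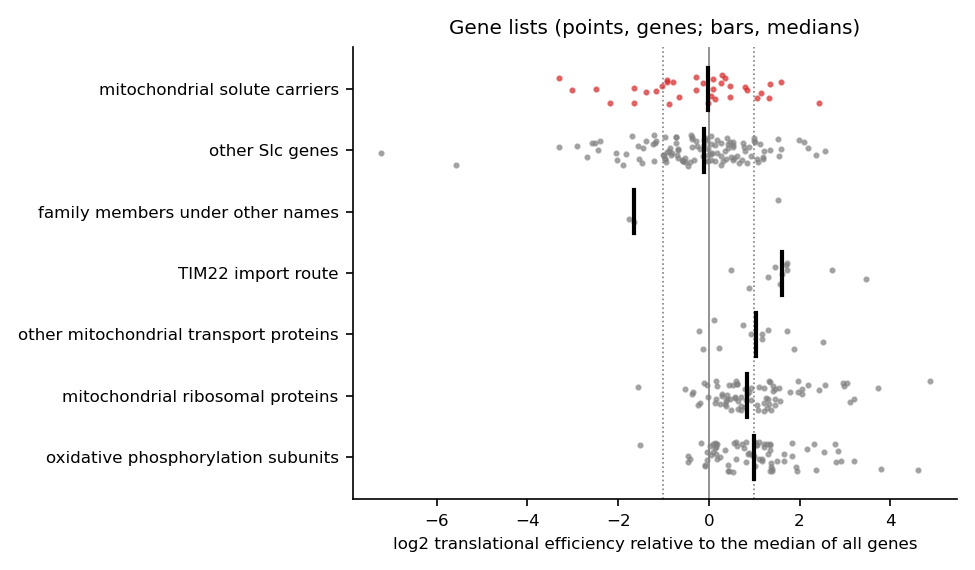
Log2 TE of each passing gene (points) of the carriers and 6 other lists, with the median of each list as a black bar and dotted lines at 1 and −1. The carriers and the other Slc genes centre near 0, and the mitochondrial ribosomal proteins, oxidative phosphorylation subunits and TIM22 route above it.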

How the data were processed

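The authors trimmed reads with Trim Galore, discarded footprint reads of rRNA, tRNA and mitochondrial origin by Bowtie2 2.4.1, aligned the rest to GRCm38 with STAR 2.6.1 and used Plastid to count each region of a gene. The deposited values are estimated counts, not normalized, and RPKM that the authors made with larger library totals. The annotation release used for counting is not given in the sources used here. RPKM and TE were recomputed from the counts with numpy 2.4.6, pandas 2.3.3 and scipy 1.17.1, without a pseudocount. Counts were rounded for DESeq2 1.42.0 size factors (base mean) and for edgeR 4.0.16. With 1 condition, TE was not tested. GENCODE M21 gave gene places and 1 transcript per gene, by principal isoform, support level and CDS length. Members were named if ADP/ATP or phosphate carriers, among the 5 highest or lowest TE with at least 100 counts in every library, among the 5 highest RNA-seq or footprint RPKM, among the 3 nearest the filters on either side, or denser in footprints on the 5′UTR. Others were named by class after their values were seen. The values of 1 member are not reported here, though its row is in the counts and medians. The members and lists were chosen with earlier results of these data known. Alternatives changed the replicates, scaling, pseudocount, counted region and filters.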

Additional observations from a re-analysis of the deposited data

How the results depend on the processing

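Leaving out RNA-seq replicate 1 or 2, the median log2 TE of the members was −0.07 to 0.02, with 35 members passing, 6 above 1 and 9 below −1. Of all genes, 21.2% and 20.7% were then above 1, and 21.3% and 20.9% below −1. The median was −0.57 with counts not divided by length, −0.16 with no filter beyond 1 count and −0.16 with the filter on the deposited RPKM. The last left 30 members, 4 above 1 and 9 below −1, without *Slc25a25* and *Slc25a32*, and no filter left 37, 6 and 11. With edgeR TMM factors 36 passed, 6 above 1 and 10 below −1, against 20.8% and 21.1% of all genes. When every library had to hold 100 counts or more, 13 members were left with a median of −0.13. Of these 1 was above 1 and 2 below −1, against 18.8% and 15.7% of all genes. Fewer genes, with a higher median, enter there, and for the other alternatives the cause was not tested. Of the 15 members past 1 or −1, 14 kept their side with RNA-seq over the CDS, 14 with a pseudocount of 1 RPKM and 15 with edgeR TMM factors. With counts not divided by length 14 kept their side and 4 more members fell below −1. That made 13 below −1 in all, against 21.1% of all genes. Asking that 80% or more of the annotated CDS be counted, 31 members passed and 12 of the 13 called ones among them kept their side. No called value changed sign in any alternative. The 5′UTR was denser in 2 of 4 members with at least 30 footprints on each region and in 0 of 8 when footprints were not divided by length, against 22.5% and 2.30% of all genes. No paired analysis was possible because there was 1 condition and the ribosome profiling library carries no replicate number.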

Other observations

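Other transport proteins of mitochondria, outside the SLC25 family, were higher in TE than the carriers. Of 13 listed genes 12 passed, 6 of them above 1 (all genes 20.8%) and none below −1 (all genes 21.1%), with a median log2 TE of 1.04. The pyruvate carrier subunits *Mpc1* and *Mpc2* had 2.52 and 1.30, though *Mpc1* is uncertain, with 23.7 CDS footprints and 14.2 and 23.4 RNA-seq counts and 19.1% of its annotated CDS counted. The outer membrane channels *Vdac1*, *Vdac2* and *Vdac3* had 0.12, 1.18 and 1.88, and the calcium uniporter *Mcu* had 0.76. With RNA-seq over the CDS the median of the list was 0.96. RNA-seq over the CDS against exons was 45.9 against 25.2 RPKM for *Mpc2* and 154 against 99.5 for *Vdac2*. For *Vdac3* it was 42.7 against 47.4, so single TE values here depend on the counted region. No difference between the lists was tested.

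The highest count of footprints on the 3′UTR among the members was in *Slc25a51*, 17 on 3320 nt of 3′UTR beside 25.6 on the CDS. *Slc25a42* had 10 on 2132 nt beside 7.66 on its CDS of 954 nt, more in count but not per nt. *Slc25a46* had 10.6 beside 109, and *Slc25a4* had 10.1 beside 1236. *Slc25a3* had 16.1 beside 3033.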
